A study of Homo sapiens with 3 samples.

Results

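Teratomas grown from human embryonic stem cells were examined for 10 RNA-binding proteins that set tissue-specific splicing, PTBP1, PTBP2, NOVA1, NOVA2, RBFOX1, RBFOX2, RBFOX3, SRRM4, ESRP1 and ESRP2. They were taken by gene symbol from 27307 measured genes, as a list drawn up with earlier results of these data known, and each gene was represented by its deposited transcript entry with the highest mean level. Levels are RPKM values, read counts scaled for transcript length and for the reads of a library, so genes can be set side by side. All 3 libraries, called teratomas 1, 2 and 3 by replicate number, came from the human embryonic stem cell line H1, with no genetic change stated. Per the labels, 1000000 cells were injected subcutaneously in immunodeficient SCID-beige mice, and tumours were taken 3 to 4 weeks later. The libraries form 1 group with no untreated or undifferentiated comparison, and whether they represent separate tumours or animals is not stated. Spread between them may therefore be technical, and any host (mouse) reads were not separated here.

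Splicing regulators bind short motifs in or beside an exon and promote or block its use in the mature RNA. PTBP1, polypyrimidine tract binding protein, is made in most dividing cells and blocks many neuronal exons. Its relative PTBP2 replaces it as neural precursors become neurons. PTBP1 also makes the PTBP2 transcript skip an exon, which leads to decay of that transcript. NOVA1 and NOVA2 control exons of synaptic proteins, RBFOX proteins bind UGCAUG and control exons in neurons and muscle, and SRRM4 drives the inclusion of very short neuronal exons. ESRP1 and ESRP2 are the epithelial splicing regulatory proteins, which keep the epithelial forms of transcripts such as FGFR2.

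The authors' RPKM values correspond to read totals of 46.2, 45.8 and 43.6 (in units of 1000000) in teratomas 1, 2 and 3. These totals were worked back from the deposited counts, lengths and RPKM values. Each member was backed by at least 443 reads in each library, so counting error was small beside the spread between libraries. The 45 pairs of members shared no run of 50 bases between their protein-coding transcripts in the GENCODE 29 annotation, so a read of 50 or more bases from a coding exon of 1 member would not match another exactly. Teratoma 3 stood apart from the other libraries over many genes. Among the 15701 genes averaging at least 1 RPKM, called expressed genes below, 3.9% lay higher in teratoma 3 than in both others by at least 1 on the log2(RPKM + 1) scale, and 6.15% lay lower. Since fewer cells of a type and less RNA per cell cannot be told apart in bulk RNA, all levels below describe the tissue as a whole.

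All 10 splicing regulators reached 1 RPKM in each library, against 52.7% of all genes. PTBP1 was the most abundant, at 98.1 ± 39.9 RPKM (SD, n = 3), followed by RBFOX2 at 51.7 ± 21.1, NOVA1 at 28.7 ± 19.6, NOVA2 at 19.4 ± 10.5 and PTBP2 at 16.2 ± 6.18. RBFOX1 stood at 10.3 ± 8.56, ESRP1 at 9.05 ± 5.18, ESRP2 at 8.9 ± 5.08, SRRM4 at 8.37 ± 5.16 and RBFOX3 at 6.52 ± 4.11. Of the 9 pairs of neighbours in this order, 4 kept their order in 3 of 3 libraries for the entries used. These were RBFOX2 above NOVA1, NOVA1 above NOVA2, PTBP2 above RBFOX1 and SRRM4 above RBFOX3. The other 5 pairs crossed in at least 1 library and are not ordered beyond their spread. The members' order thus depended on the library: PTBP1 led in teratomas 1 and 2, while RBFOX2 led in teratoma 3, where the ESRP genes came last.

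**Figure D1:**
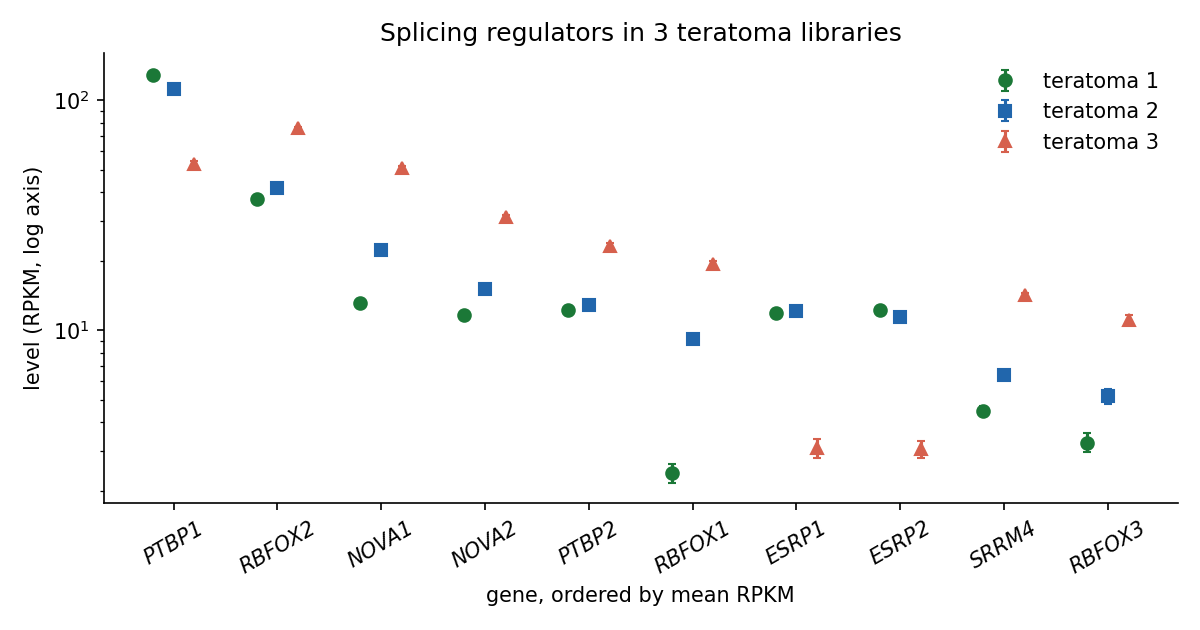
Level of each splicing regulator in RPKM (log axis) in teratomas 1 (circles), 2 (squares) and 3 (triangles), with genes ordered by mean and bars giving the 95% Poisson interval of the read count. The triangle is the lowest point for PTBP1, ESRP1 and ESRP2 and the highest for the other 7 genes.

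PTBP1 and PTBP2 lay in opposite directions across the libraries. PTBP1 stood at 129, 112 and 53.1 RPKM in teratomas 1, 2 and 3, so that teratoma 3 was 2.27-fold lower than the mean of the others. PTBP2 stood at 12.2, 12.9 and 23.3 RPKM, 1.85-fold higher in teratoma 3 than that mean, while its counting intervals in teratomas 1 and 2 overlapped. PTBP1 was therefore 10.6, 8.65 and 2.28 times as abundant as PTBP2 in the 3 libraries. PTBP2 made up 8.65%, 10.4% and 30.5% of the summed RPKM of the pair. PTBP1 exceeded PTBP2 in 3 of 3 libraries, with PTBP1 minus PTBP2 at 3.30, 3.02 and 1.16 on the log2(RPKM + 1) scale (mean 2.49 ± 1.16). An exact permutation test that flips the sign of each library's difference (two-sided) gave p = 0.25, the smallest p that 3 libraries allow, so this test could not reach a threshold of 0.05. The entries of PTBP1, and those of PTBP2, differed little in level. The 3 PTBP1 entries ranged from 128 to 129 RPKM in teratoma 1 and the 9 PTBP2 entries from 11.4 to 12.2. The PTBP2 entry kept is one that RefSeq lists as non-coding, and its level is close to those of the coding entries.

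The NOVA genes, whose proteins were first known as targets of a neurological autoimmune disease, were both highest in teratoma 3. NOVA1 stood at 13.1, 22.4 and 50.8 RPKM, a 3.88-fold span. NOVA2 stood at 11.6, 15.2 and 31.3 RPKM, a 2.69-fold span. For the entries kept, NOVA1 exceeded NOVA2 in 3 of 3 libraries, by 0.16, 0.53 and 0.68 on the log2(RPKM + 1) scale. NOVA2 made up 47%, 40.5% and 38.1% of their summed RPKM. This order depended on the entry. By a shorter NOVA1 entry, at 10.6, 16.1 and 34.4 RPKM, NOVA1 lay below NOVA2 in teratoma 1 and above it in teratomas 2 and 3.

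All 3 RBFOX genes were highest in teratoma 3, over very different spans. RBFOX2, which is made in many cell types including stem cells and muscle, stood at 37.2, 41.8 and 75.9 RPKM, a 2.04-fold span. RBFOX1, a form of neurons, heart and skeletal muscle, stood at 2.39, 9.16 and 19.4 RPKM, an 8.11-fold span and the widest of the 10 genes. RBFOX1 was also the only member for which teratoma 1 lay below both other libraries by at least 1 on the log2 scale, as 0.535% of expressed genes did. RBFOX3, which encodes the neuronal antigen NeuN, stood at 3.25, 5.18 and 11.1 RPKM. RBFOX2 was the most abundant of the family in each library, at 15.6, 4.56 and 3.92 times the level of RBFOX1 and 11.4, 8.06 and 6.82 times that of RBFOX3. RBFOX1 lay below RBFOX3 in teratoma 1 and above it in teratomas 2 and 3. The summed level of 9 muscle genes was 20.8, 20.7 and 28.7 RPKM, and only 3 of the 9 reached 1 RPKM in all libraries. Single muscle genes differed. MYOG (1.65, 0.114 and 3.55 RPKM) and MYH3 (1.42, 0.412 and 2.87) were highest in teratoma 3 and lowest in teratoma 2. ACTA1 (6.44, 6.23 and 6.72) varied little, and DES (4.85, 10.3 and 4.49) was highest in teratoma 2. Whether muscle contributes to the RBFOX1 level was not tested.

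SRRM4, the neural activator of very short exons, stood at 4.48, 6.4 and 14.2 RPKM, a 3.17-fold span. It kept a steady distance from NOVA2, which was 2.59, 2.37 and 2.2 times as abundant. Its paralogue SRRM3 stood at 2.89, 3.54 and 6.02 RPKM, while SRRM1 (13.4, 13.7 and 12.7) and SRRM2 (67.9, 64.6 and 61.7), general splicing coactivators of the same name, varied little. PTBP3, the third PTB gene, stood at 9.6, 8.28 and 6.92 RPKM. None of these 4 relatives differed by 1 or more between its highest and lowest library on the log2(RPKM + 1) scale. Among expressed genes 20% did, so most genes were like them in this. SRRM3 came nearest to that margin, at 0.85.

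The ESRP genes were nearly equal to each other in each library. ESRP1 stood at 11.9, 12.2 and 3.07 RPKM, and ESRP2 at 12.2, 11.4 and 3.05. Teratoma 3 was 3.92-fold and 3.88-fold lower than the mean of the other libraries for ESRP1 and ESRP2, and for both genes the counting intervals of teratomas 1 and 2 overlapped. ESRP2 made up 50.7%, 48.3% and 49.8% of their summed RPKM, the smallest variation of any family here. The difference ESRP1 minus ESRP2 was -0.04, 0.09 and 0.01 on the log2(RPKM + 1) scale, so the genes could not be ordered.

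Neuronal factors summed to more than the epithelial factors in each library, by the widest ratio in teratoma 3, while their medians changed order. The 5 neuronal factors, NOVA1, NOVA2, RBFOX1, RBFOX3 and SRRM4, summed to 34.8, 58.3 and 127 RPKM, and the 2 ESRP genes to 24.1, 23.6 and 6.12. The neuronal sum was 1.45, 2.47 and 20.7 times the epithelial sum. Per gene, the median neuronal factor lay below the median epithelial factor in teratomas 1 and 2 and above it in teratoma 3, with neuronal minus epithelial medians at -1.25, -0.33 and 2.33 on the log2(RPKM + 1) scale. Their mean was 0.25 ± 1.86, smaller than its spread, and without teratoma 3 it was -0.79.

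Counted against all genes, 9 of the 10 members differed by at least 1 between their highest and lowest library on the log2(RPKM + 1) scale, PTBP2 (0.88) being the exception. After rescaling of each library to 1000000, PTBP2 reached 1.02 as well. The same was true of 12.1% of all genes and of 20% of the expressed genes. NOVA1, RBFOX1 and SRRM4 lay above both other libraries by at least 1 in teratoma 3, as 3.9% of expressed genes did. PTBP1, ESRP1 and ESRP2 lay below both by at least 1, as 6.15% of expressed genes did. NOVA2 and RBFOX3 lay just short of that margin, at 0.996 and 0.973 above teratoma 2, and with a pseudocount of 0.1, median-of-ratios scaling or rescaling of each library to 1000000 the count was 5 members. By any margin, teratoma 3 was the highest library for 7 members and the lowest for 3, as it was for 39.9% and 48.1% of expressed genes. Those directions held under both other scalings. Between teratomas 1 and 2 alone 1 member of 10, RBFOX1, differed by at least 1, beside 2.48% of expressed genes, and without teratoma 3 the count of 9 became 1.

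**Figure D2:**
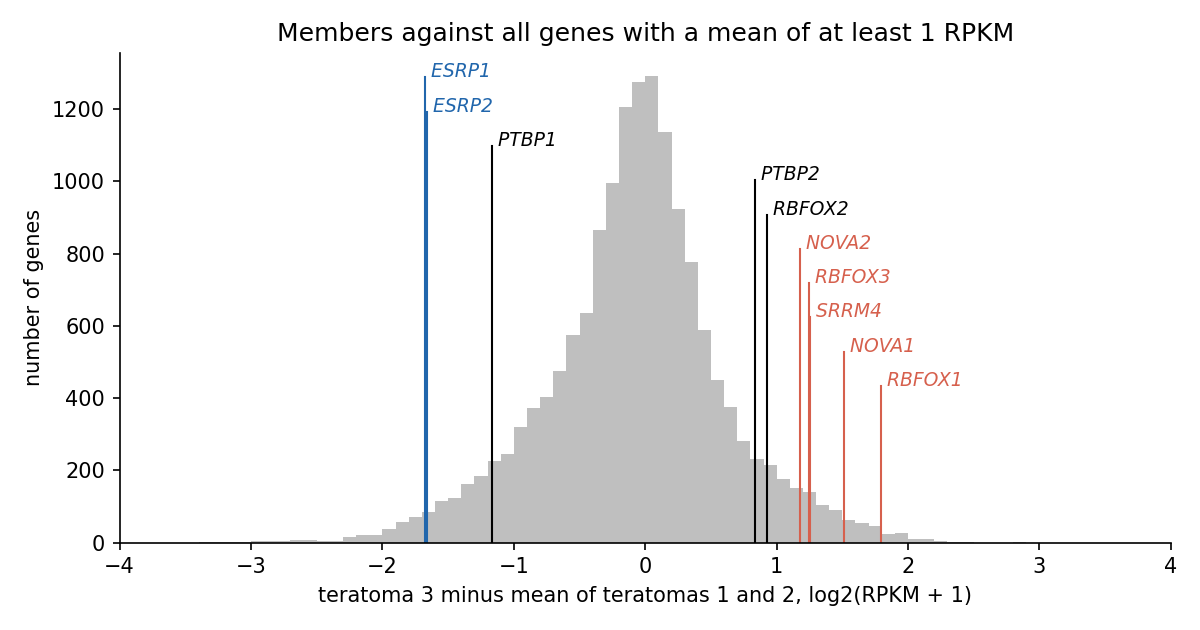
Difference between teratoma 3 and the mean of teratomas 1 and 2 on the log2(RPKM + 1) scale (horizontal) for the 15701 expressed genes (grey histogram, number of genes), with vertical lines at the 5 neuronal factors (red), the ESRP genes (blue) and the other members (black). Line heights only separate the labels. The ESRP genes lie at -1.68 and -1.66, PTBP1 at -1.17, and the other 7 genes between 0.84 (PTBP2) and 1.80 (RBFOX1), while the median over the expressed genes is -0.05.

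Markers of neurons and of epithelium moved with the splicing factors. All 15 neuron markers, such as TUBB3 (435, 510 and 1216 RPKM) and MAPT (31, 59.4 and 193), were higher in teratoma 3 than in both others by at least 1 on the log2 scale. They summed to 983, 1270 and 3481 RPKM, 3.09-fold higher in teratoma 3 than the mean of the others. The neuronal factors were 2.33-fold (NOVA2) to 3.36-fold (RBFOX1) higher by the same measure. All 14 epithelial markers, such as KRT19 (235, 277 and 66 RPKM) and KRT8 (205, 205 and 44.9), were lower in teratoma 3 than in both others by at least 1. They summed to 1093, 1070 and 267 RPKM, 4.06-fold lower in teratoma 3. All 15 neuron and 14 epithelial markers reached 1 RPKM in each library. Mesenchymal markers summed to 1714, 1331 and 396 RPKM, endothelial markers to 42.6, 43.7 and 12.8, leukocyte markers to 32, 28.6 and 12.6, and neural progenitor markers to 311, 321 and 477.

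Set against the epithelial marker sum the ESRP genes were level, and against the neuron sum most neuronal factors were nearly so. ESRP1 equalled 1.09%, 1.14% and 1.15% of the epithelial sum and ESRP2 equalled 1.12%, 1.07% and 1.14%. SRRM4 equalled 0.456%, 0.504% and 0.408% of the neuron sum, RBFOX3 0.331%, 0.408% and 0.32%, NOVA1 1.33%, 1.76% and 1.46%, and NOVA2 1.18%, 1.2% and 0.899%. RBFOX1 differed more, at 0.243%, 0.721% and 0.557%. Against the neuron sum PTBP2 and RBFOX2 were lowest in teratoma 3, with PTBP2 at 1.25%, 1.02% and 0.669% and RBFOX2 at 3.79%, 3.29% and 2.18%. PTBP1 was level with neither list, at 13.1%, 8.82% and 1.52% of the neuron sum and 11.8%, 10.5% and 19.9% of the epithelial sum. Mesenchymal, endothelial and leukocyte sums were also lower in teratoma 3 than the mean of the others, by 3.85-fold, 3.38-fold and 2.41-fold. Members were not set against those sums, so whether a level share is particular to 1 cell type was not tested. The part that the share of neurons or epithelium in each library plays in the members' levels was not tested.

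**Figure D3:**
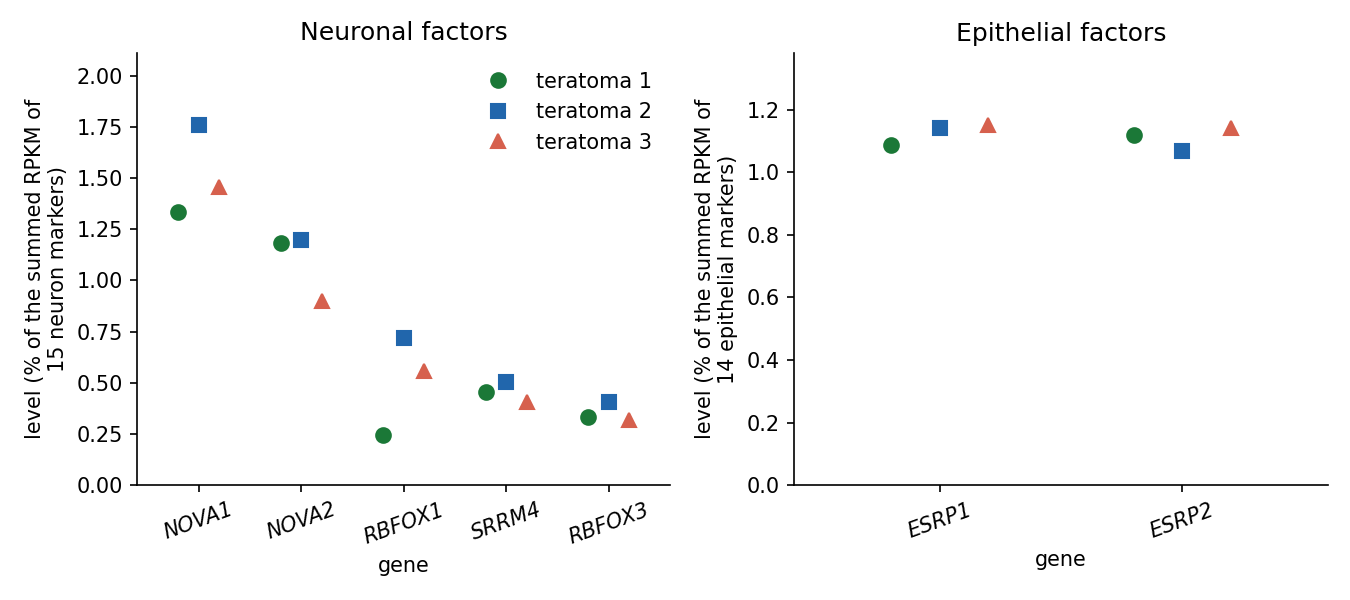
Left, level of each neuronal factor as a percentage of the summed RPKM of 15 neuron markers; right, level of each ESRP gene as a percentage of the summed RPKM of 14 epithelial markers, in teratomas 1 (circles), 2 (squares) and 3 (triangles). The ESRP points lie between 1.07% and 1.15%, and the lowest neuronal point is RBFOX1 in teratoma 1 at 0.243%.

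Of 6 genes listed as known regulators of these factors, 0 lay above or below both other libraries by at least 1 in teratoma 3. REST and RCOR1 were lowest in teratoma 3, as 48.1% of expressed genes were, and LINC00599 was highest, as 39.9% were. REST, a repressor of neuronal genes that holds SRRM4 silent outside neurons and whose own transcript SRRM4 alters, stood at 7.67, 6.77 and 3.62 RPKM. Its corepressor RCOR1 stood at 8.84, 9.18 and 7.89. LINC00599, a host transcript of miR-124, a neuronal microRNA that lowers PTBP1, stood at 3.05, 4.92 and 7.66 RPKM. The hairpin entries MIR124-1 and MIR124-3 had 0 reads in each library and MIR124-2 had 5, 8 and 6. Libraries of polyadenylated RNA do not measure the mature microRNA.

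Among 20 other splicing and RNA-processing regulators with tissue-biased levels, 18 were detected in all libraries. In teratoma 3, 7 lay above both others by at least 1, beside 3.9% of expressed genes, and 1 lay below, beside 6.15%. The higher ones were CELF3, CELF4, CELF5, CELF6, ELAVL2, ELAVL3 and ELAVL4, of families with neuronal RNA-binding proteins. Among them were CELF4 (9.48, 18.9 and 51.3 RPKM), ELAVL3 (28.9, 38.9 and 96) and ELAVL2 (8.24, 16.4 and 40). The lower one, named after its values were seen, was RBM47 (9.74, 10.6 and 2.93), an epithelial RNA-binding protein. MSI1, a protein of neural stem cells, stayed near 43.3 ± 2.62 RPKM. Of 14 general splicing factors 0 passed that margin in either direction. HNRNPA1, a general splicing repressor, stood at 173, 156 and 115 RPKM and SRSF2, a serine-arginine-rich activator, at 148, 129 and 98.7.

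The deposited tables list reads per transcript entry, and entries of a gene that differ by 1 exon give the reads in that exon by subtraction. For each such pair except that of ENAH, which was not matched, the difference in length equals the length of an exon in a GENCODE transcript of the gene. The rest of the entries' structure cannot be read from the tables. The exons examined belong to members or to known targets of PTB proteins and ESRPs. The following sequences, read from GENCODE 29 transcripts (GRCh38) and printed 5′ to 3′, show which stretches the reads had to match. The positions are on GRCh38 and were not used with the deposited values, whose build is hg19. In PTBP1 exon 9, at chr19:805492-805569 on the plus strand, capitals mark the 21 bases that a shorter form of the exon leaves out. PTBP2 exon 10, at chr1:96806419-96806452 on the plus strand, is the exon whose skipping PTBP1 promotes. All exons shown are coding.
PTBP1 exon 9: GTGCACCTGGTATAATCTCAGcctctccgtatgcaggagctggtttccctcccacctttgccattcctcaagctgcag
PTBP2 exon 10: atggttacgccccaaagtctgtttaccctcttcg

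PKM, pyruvate kinase, uses either exon 9 (form M1, of muscle and brain) or exon 10 (form M2, of embryonic and dividing cells), and PTBP1 blocks exon 9. These exons exclude each other, and capitals below mark the bases that differ between them. PKM exon 9 lies at chr15:72203022-72203188 and exon 10 at chr15:72202454-72202620, both on the minus strand. The PKM exons match at 105 positions and differ at 62, with no shared run beyond 10 bases, so their reads can be told apart.
PKM exon 9: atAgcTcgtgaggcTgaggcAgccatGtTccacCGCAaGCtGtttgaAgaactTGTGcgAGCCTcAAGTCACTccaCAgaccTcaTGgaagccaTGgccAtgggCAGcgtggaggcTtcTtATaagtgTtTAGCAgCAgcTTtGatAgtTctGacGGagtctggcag
PKM exon 10: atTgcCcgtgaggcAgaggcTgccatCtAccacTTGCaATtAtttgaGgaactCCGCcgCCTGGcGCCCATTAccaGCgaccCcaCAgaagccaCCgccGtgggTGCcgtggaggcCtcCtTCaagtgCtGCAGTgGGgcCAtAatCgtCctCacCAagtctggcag

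The sign of the read difference between the PKM entries changed in teratoma 3. These entries have equal lengths, so no check by length was possible, and that they differ only in exons 9 and 10 is assumed. The PKM entry with exon 10 had 1262 and 1130 more reads than the entry of equal length with exon 9 in teratomas 1 and 2, and 463 fewer in teratoma 3. Total PKM was similar, at 22332, 20859 and 21622 reads for the exon 9 entry, so the difference was 5.65%, 5.42% and -2.14% of that entry. Only the difference between exclusive exons can be read in this way, not the reads of each exon.

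CTNND1, which encodes the junction protein p120 catenin, has exons near its start that epithelial cells tend to skip. Its longest exon examined, of 289 bases, had 299, 332 and 456 reads, or 2.37%, 3.04% and 5.14% of the reads of the entry that holds it. The exact Clopper-Pearson 95% intervals, 2.11 to 2.65, 2.72 to 3.38 and 4.69 to 5.62, lay apart for all 3 libraries. Per base, the exon held 0.484, 0.625 and 1.08 times the reads of the rest of the transcript. Another exon of the gene, of 63 bases, had 64, 72 and 35 reads, with overlapping shares. An 87-base exon had 3, 4 and 7 reads, where 186, 160 and 127 would be present at the density of the rest. A 63-base exon of ENAH, an actin regulator whose epithelial form holds an extra exon, had 13, 20 and 7 reads of 7796, 8189 and 9854. The interval of teratoma 3, 0.0286% to 0.146%, lay below that of teratoma 2 (0.149% to 0.377%) and overlapped that of teratoma 1 (0.0888% to 0.285%). ENAH was added after its values were seen.

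For the members' own exons, and for an exon of DLG4, which is not a member, the shares in teratoma 3 were not separated from those of the other libraries at this depth. The PTBP1 transcript holds 2 exons of 78 bases, and the length alone does not say which one its entries differ by. Taken as exon 9, whose skipping gives a weaker repressor, the 78-base exon had 325, 259 and 96 reads, or 1.67%, 1.55% and 1.28% of its entry, with intervals that overlapped (1.49 to 1.86, 1.37 to 1.75 and 1.04 to 1.56). The 72-base exon of NOVA1 had 19, 26 and 40 reads and the 81-base exon of RBFOX1 6, 19 and 41, and the intervals of their shares also overlapped between libraries. A 53-base exon of RBFOX1 had 0, 5 and 4 reads. A 110-base exon of DLG4, the postsynaptic scaffold PSD-95, had 90, 125 and 295 reads, with overlapping intervals (2.25 to 3.43, 2.81 to 3.99 and 3.38 to 4.24 percent). Per base, the DLG4 exon held 1.10, 1.33 and 1.51 times the reads of the rest of the entry. PTBP2 exon 10 had 0 reads in each library, where 19, 19.8 and 34.1 would be present at the density of the rest of the entry. A count of 0 allows a share of up to 0.191%, 0.182% and 0.106% of the entry (upper Clopper-Pearson bounds). Whether reads across exon borders could align was not tested for any of the exons examined, including those of CTNND1 and ENAH. The reads per base relative to the rest, the reads expected at that density, and the bounds therefore do not give how often an exon was used. The very short exons that SRRM4 controls were not analysed here. Counting intervals cover counting error only, and exon shares have no test over libraries, which form 1 group.

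**Figure D4:**
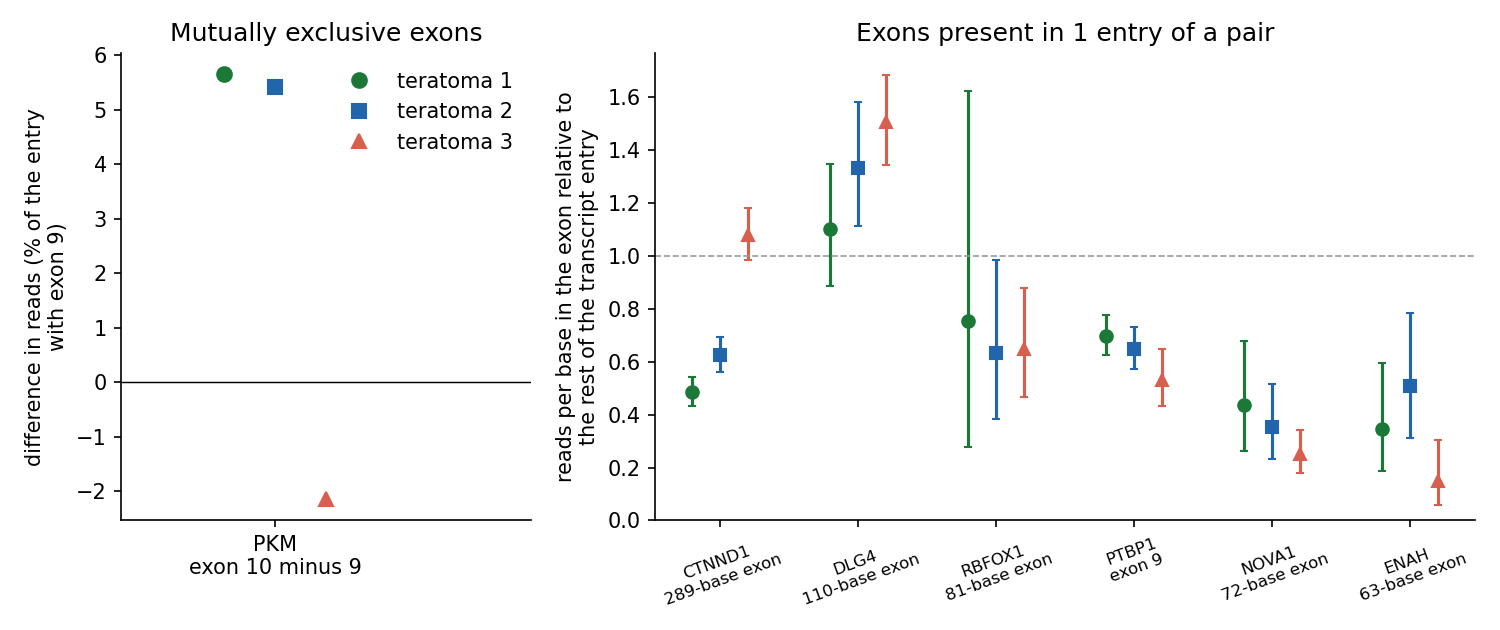
Left, reads of the entry with PKM exon 10 minus those of the entry with exon 9, as a percentage of the latter; right, reads per base in single exons relative to the rest of the transcript entry, with 95% Clopper-Pearson intervals and a dashed line at equal density, for teratomas 1 (circles), 2 (squares) and 3 (triangles). In teratoma 3 the difference on the left lies below 0, and the CTNND1 exon reaches 1.08 against 0.484 and 0.625. A point below the dashed line does not give how often the exon was used, since alignment across exon borders was not tested.

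The genes whose profile over the 3 libraries was nearest to a member were found by Euclidean distance of their deviations from their own mean on the log2(RPKM + 1) scale. With 3 libraries many genes share a profile, so these names only describe it. Nearest to PTBP1 was TSEN54 (10.1, 8.71 and 3.62 RPKM), then NME4 and NLRX1. Near PTBP2 were ITFG1 (10.7, 11.5 and 20.8) and RIMBP2. SRRM4 was matched by LINGO3 (2.01, 3.05 and 7.32), SLC6A15 and the glutamate receptor gene GRM7, and RBFOX3 by CGREF1 (2.54, 4.12 and 9.07), PDE1B and PREPL. Near ESRP1 were TOR4A (9.68, 10.04 and 2.4) and GCNT1, and near ESRP2 were MIR6887 (9.32, 8.73 and 2.12), TMC4 and MYH14. A distance of at most 0.1 was reached by 132 genes for PTBP1, 217 for PTBP2, 104 for SRRM4, 85 for RBFOX3, 28 for ESRP1 and 31 for ESRP2. Among those within that distance, ESRP2 ranked 20 for ESRP1 and ESRP1 ranked 27 for ESRP2. RBFOX3 ranked 62 and NOVA2 ranked 76 for SRRM4, SRRM4 ranked 44 for RBFOX3, and RBFOX2 ranked 204 for PTBP2.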

How the data were processed

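Polyadenylated RNA was prepared with a NEBNext Ultra kit, per the labels' protocols. The 3 deposited tables hold, per RefSeq transcript entry, the authors' RPKM values and raw read counts, with a length and a placement number, per the values themselves, since the files have no header. Alignment with Bowtie2 to hg19 is named in the submitters' processing notes. For the counting tool, read length, filters, strand setting and removal of mouse reads, the sources used here give nothing, so overlapping or antisense genes cannot be told apart. The deposited counts give a read to each entry that holds it, so entries were not summed. Of the 37 entries of the members, the one with the highest mean RPKM per symbol was kept. Differences were taken on log2(RPKM + 1), a scale that compresses low genes, with an exact sign-flip permutation test for PTBP1 against PTBP2. Counting intervals (95%) are exact Poisson for levels and Clopper-Pearson for exon shares. The call rule was run on simulated data with a fixed fold change and a fixed spread. That run checks the rule itself and gives no error rate for these libraries. The 12 lists hold 116 genes, with markers of other cell types among them. Named were all members, the genes of the lists of PTBP1 and SRRM4 regulators and of PTB and SRRM relatives, members of other lists by highest mean or widest range, the 3 genes nearest in profile to 6 members, and entries of genes with exons under PTB or ESRP control. Some items that the rule names are not reported here. The members and lists were chosen with earlier results of these data known. Exon sequences and positions come from GENCODE 29 on GRCh38. The deposited tables held 0 columns of other samples. Alternatives covered the pseudocount, the entry kept, scaling, thresholds and each library left out. Python 3.11.15, numpy 2.4.6, pandas 2.3.3, scipy 1.17.1 and matplotlib 3.10.9 were used.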

Additional observations from a re-analysis of the deposited data

How the results depend on the processing

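PTBP1 exceeded PTBP2 on average in each alternative. The mean difference ranged from 2.09 to 3.16 on the log2(RPKM + 1) scale with each library left out. It was 1.00 with entries summed, where the sign was not the same in all libraries (exact sign-flip permutation p = 0.5). The PTBP2 share of the pair moved from 16.5% to 34.5% with entries summed, a setting that counts shared reads once for each of 9 PTBP2 and 3 PTBP1 entries, and ranged from 9.51% to 20.4% with each library left out. The neuronal minus epithelial difference ranged from -0.79 without teratoma 3 to 1.00 without teratoma 1, so its sign rests on teratoma 3. The count of members at least 1 higher in teratoma 3 was 3, and 5 with a pseudocount of 0.1 or 0.01, with rescaling to 1000000 or with median-of-ratios scaling, 7 with a 1.5-fold margin, and 3 to 6 without teratoma 1 or 2. Without teratoma 3 it has no value. The count of members differing between libraries was 9, 10 with rescaling to 1000000 or with a 1.5-fold margin, 5 with a margin of 1.5, and ranged from 1 without teratoma 3 to 9 without teratoma 2. With detection at 5 RPKM, 5 members were detected in all libraries. Exon shares moved within their counting intervals when taken over the shorter entry, an alternative added after the data were seen. No paired analysis was possible because the libraries form 1 group, so there is no second group to pair with. The test of PTBP1 against PTBP2 compares the genes within each library. Depth limits short exons, at 0 to 41 reads for several.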
